A study of Mus musculus with 7 samples.

Results

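The cells described here were T cells of the inflamed central nervous system that carried transcripts of Tmem176a and Tmem176b and had no UMI of a few genes that mark CD8, regulatory and gamma delta T cells. They were chosen on raw counts of unique molecular identifiers (UMIs), each of which stands for 1 captured RNA molecule. A cell barcode with at least 200 genes and at most 10% mitochondrial UMIs was a T cell when Cd3d, Cd3e and Cd3g together had at least 2 UMIs and Lyz2, C1qb and Cd74 together at most 120 per 10000 UMIs. A T cell was conventional when Cd163l1, Ikzf2, Cd8a and Cd8b1 were at 0 and Ccl1 and Nrgn together had at most 1 UMI, and in libraries made from CD45 cells also when Trdc was at 0. Conventional T cells with at least 2 UMIs of Tmem176a and Tmem176b together were the Tmem176-positive cells. There were 827 of them among 3872 conventional T cells, 6495 T cells and 13922 barcodes. The 2659 conventional T cells without any Tmem176a or Tmem176b UMI, called Tmem176-zero cells below, were the main comparison.

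The cells came from the central nervous system of B6 mice immunized with the myelin peptide MOG35-55 and taken at the peak of experimental autoimmune encephalomyelitis, a paralytic inflammatory disease. Mice lacking the inhibitory receptor LAG3 (titled lag3ko, with the genotype Lag3Floxed, called Lag3KO here) were set beside mice with intact Lag3 (Lag3wt, called WT), 5 mice to a group and matched for age, sex and disease score. Magnetic beads enriched CD4 cells for 2 Lag3KO_CD4 and 2 WT_CD4 libraries, and CD45 cells, which are leukocytes of every kind, for 1 Lag3KO_CD45 and 2 WT_CD45 libraries. The sources used here give neither a Cre line nor the deleted exons, and do not say which mice entered which library. The p-values therefore measure at most the spread between these libraries, which may be technical. The genotype difference in the CD45 libraries has a single library on the Lag3KO side and is given as values. Sort and preparation batch cannot be told apart.

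TMEM176A and TMEM176B are membrane proteins related to the MS4A family. They sit mainly on intracellular vesicles, act as cation channels, and are known from dendritic cells and from IL-17 producing lymphocytes. In the Th17 fate CD4 T cells make the cytokines IL-17A, IL-17F and IL-22 and respond to IL-23 and IL-1. In experimental autoimmune encephalomyelitis Th17 cells and the interferon gamma producing Th1 cells are the main kinds of pathogenic CD4 T cell, and gamma delta T cells are a further source of IL-17A.

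Both genes lie next to each other on mouse chromosome 6 and are read in opposite directions. In RefSeq on GRCm38.p6, Tmem176b starts at 48841374 on the minus strand and Tmem176a at 48841483 on the plus strand, 109 bases apart. The gene spans of GENCODE are wider and overlap, with Tmem176b at 48833818 to 48841496 and Tmem176a at 48840919 to 48847071. Both spans hold the bases between the RefSeq starts. Those bases are shown because the promoters of both genes share them. They are chr6:48841375-48841482 on the plus strand, all in lower case:
Tmem176b to Tmem176a: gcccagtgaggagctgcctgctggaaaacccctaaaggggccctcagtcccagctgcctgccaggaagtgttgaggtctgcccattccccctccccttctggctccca
This stretch of 108 bases had 63.9% G and C, against a median of 52.7% over the RefSeq promoter windows of all genes. The nuclear receptor binding letters AGGTCA and the AP-1 letters TGAGTCA, searched on both strands, were not in it, nor in the 2 RefSeq promoter windows of Tmem176a and the 3 of Tmem176b. Of 32851 promoter windows, 16.3% held AGGTCA and 5.2% held TGAGTCA.

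The 7 libraries held 1428 to 2517 barcodes and 4585251 to 18940186 UMIs. Any 2 libraries shared between 0 and 12 barcodes, and at most 3 Tmem176-positive cells of a library shared theirs with another library. A simulation of doublets marked 10 of the 827 Tmem176-positive cells (1.21%), against 1.62% of all barcodes past the limits. The latter share follows from the rate set for the simulation, 0.8% per 1000 barcodes. Marked cells were 1 of 170 Tmem176-positive and 0 of 383 Tmem176-zero cells in Lag3KO_CD4 1. Lag3KO_CD4 2 had 0 of 79 and 8 of 917, and WT_CD4 1 had 3 of 203 and 8 of 642. WT_CD4 2 had 3 of 181 and 2 of 492, and Lag3KO_CD45 1 had 2 of 51 and 0 of 82. WT_CD45 1 had 0 in both classes, and the library labelled WT_CD45 2 had 1 of 79 and 1 of 82. The genotype was checked by Lag3 itself. The Tmem176-positive cells held 0 Lag3 UMIs in each of the 3 Lag3KO libraries, against 17 in WT_CD4 1, 8 in WT_CD4 2, 4 in WT_CD45 1. The library labelled WT_CD45 2 held 0. It also had 4 Lag3 UMIs over all its barcodes, against 304 in WT_CD45 1, so its Lag3 level goes against its label. Its label was kept, and directions between genotypes in the CD45 libraries rest on it.

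The Tmem176-positive cells held 1747 UMIs of Tmem176a and 2025 of Tmem176b. Both genes were detected in 629 of the 827 cells, and 237 cells had exactly the 2 UMIs that the rule requires. Since the rule sums both genes, it helped to set the first of these counts. The median level of the 2 genes together was 9.73 to 14.5 per 10000 UMIs by library. Just inside the limit, cells with 2 UMIs had medians of 3.69 to 9.16 per 10000 by library, and just outside it the 386 conventional T cells with 1 UMI had 2.84 to 4.71. The rule favours cells with more UMIs. Median depth was 2507 to 4350 UMIs per Tmem176-positive cell and 1866 to 3279 per Tmem176-zero cell, and it was higher in Tmem176-positive cells in 6 of 7 libraries, the library labelled WT_CD45 2 being the exception.

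Tmem176-positive cells made up 26.8% of the conventional T cells of Lag3KO_CD4 1 (170 cells, exact 95% interval 23.4 to 30.4%) and 7.47% of those of Lag3KO_CD4 2 (79 cells, 5.96 to 9.23%). Their share was 21.3% in WT_CD4 1 (203 cells, 18.7 to 24.0%) and 24.6% in WT_CD4 2 (181 cells, 21.6 to 27.9%). In the CD45 libraries it was 32.7% in Lag3KO_CD45 1 (51 cells, 25.4 to 40.7%), against 43.5% in WT_CD45 1 (64 cells, 35.4 to 52.0%) and 41.6% in the library labelled WT_CD45 2 (79 cells, 34.5 to 48.9%). Lag3KO_CD4 2 stood apart from the other 6 libraries, and the Lag3KO_CD4 libraries lay on both sides of the WT_CD4 libraries. The shares averaged 17.1 ± 13.7% in Lag3KO_CD4 and 23.0 ± 2.35% in WT_CD4 (SD, n = 2 libraries each).

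Averaged over both sorts, the share was 7.84 percentage points lower in Lag3KO than in WT libraries, which did not pass a two-sided exact permutation test within sort (p = 0.222). The smallest p that its 18 arrangements allow is 0.0556. The difference was -3.01 points without Lag3KO_CD4 2. Intervals cover counting error only.

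The share moved with depth. Among CD8 marked T cells, which the rule leaves out, 2 or more Tmem176 UMIs were found in 20.5% and 13.5% of cells in the Lag3KO_CD4 libraries and in 12.1% and 21.4% in the WT_CD4 libraries. In the CD45 libraries the value was 31.8% in Lag3KO_CD45 1, against 17.0% and 16.5% in the WT_CD45 libraries. CD8 marked cells were deeper, with medians of 3990 to 6004.5 UMIs, and the share of Lag3KO_CD4 2 lay below that of its own CD8 marked cells. With every cell thinned to 1500 UMIs, Tmem176-positive shares were 19.0% and 3.93% in Lag3KO_CD4, 16.6% and 15.9% in WT_CD4, 20.2% in Lag3KO_CD45 1, and 23.0% and 25% in WT_CD45. The whole rule was applied again to the thinned counts, so cells that had lost their UMIs of a gene that the rule sets to 0 entered the conventional T cells. The shares are therefore of 165 to 840 cells by library, against 147 to 795 of the conventional T cells named above with at least 1500 UMIs. At that depth 1 CD8 marked cell passed the limit in Lag3KO_CD45 1 (3.13%), and 1 in the library labelled WT_CD45 2 (2.33%), with 0 in the other 5 libraries, which held 7 to 26 such cells and have upper exact 95% limits of 13.2 to 41.0%. Thinning left out 0 to 262 conventional T cells by library. The thinned genotype difference was -4.29 points (exact permutation p = 0.278). Gamma delta marked T cells passed the limit far more often, at 56.3 to 86.0% by library without thinning. Ikzf2-positive T cells, which the rule also leaves out, passed at 27.3% and 8.41% in Lag3KO_CD4 and 17.1% and 16.9% in WT_CD4. In the CD45 libraries they passed at 49.3% in Lag3KO_CD45 1, against 34.7% and 22.2% in WT_CD45, also without thinning.

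**Figure D1:**
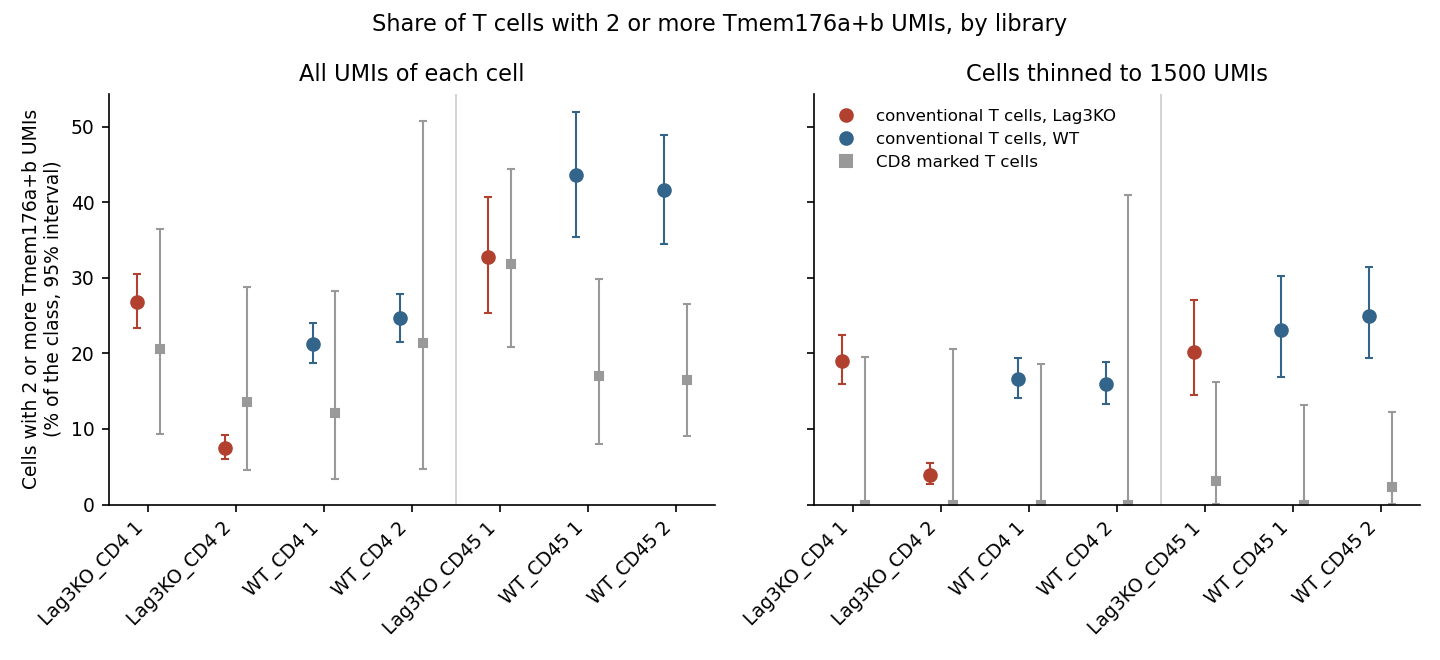
Share of conventional T cells (circles, Lag3KO red and WT blue) and of CD8 marked T cells (grey squares) with at least 2 UMIs of Tmem176a and Tmem176b, by library, in percent with exact 95% intervals, from all UMIs (left) and after thinning to 1500 UMIs per cell (right). Lag3KO_CD4 2 has 7.47% of its conventional T cells in the class, below the other 6 libraries, and after thinning 0 of 7 to 26 CD8 marked cells pass in 5 of 7 libraries.

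Without thinning, Cd4, the co-receptor that marks helper T cells, was detected in 48.0% of Tmem176-positive cells, and Trac, the constant part of the T cell receptor alpha chain, in 96.1% of those in Lag3KO_CD45 1, against 87.5% and 83.5% in the WT_CD45 libraries. Tmem176-zero cells had Trac in 95.1% of those in Lag3KO_CD45 1, against 86.9% and 95.1% in WT_CD45. Thinned to 1000 UMIs, Trac was found in a mean of 58.8% of Tmem176-positive and 65.5% of Tmem176-zero cells over these 3 libraries, higher in 1 of 3 (exact sign-flip permutation p = 0.5, the smallest possible being 0.25). Without thinning, gamma delta marked cells of the same 3 libraries had Trac in 37.2%, 40.7% and 42.9% of cells. Thinned to 1000 UMIs, Cd4 was found in 14.3 to 24.6% of Tmem176-positive cells by library, against 1.27 to 9.09% of CD8 marked cells, which should lack it. The level of Cd4 was 161 to 234 UMIs per 1000000 UMIs of that class and library (CPM) in Tmem176-positive and 146 to 275 CPM in Tmem176-zero cells, a log2 difference of -0.16 ± 0.09 (SE) that did not pass (adjusted p = 0.345). The receptor genes Trac and Trdc are listed only for the CD45 libraries, so in the CD4 libraries gamma delta T cells could be left out by Cd163l1 alone. Foxp3, the transcription factor of regulatory T cells, was detected in 3 of the 827 cells, 1 in Lag3KO_CD4 2 and 2 in the library labelled WT_CD45 2. The genes of the rule were left out of the tests across all genes between classes of cells. Trdc, which the rule sets to 0 in both classes of the CD45 libraries, is 1 of the 16 genes whose shares of cells are compared below at matched depth.

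To compare shares of cells with Th17 transcripts at matched depth, each cell was thinned to 1000 UMIs. Il17a was then found in 5.29% and 3.90% of Tmem176-positive cells of the Lag3KO_CD4 libraries, 4.55% and 3.35% in WT_CD4, 5.88% in Lag3KO_CD45 1, and 12.5% and 16.5% in WT_CD45. The same shares in Tmem176-zero cells were 0% (0 of 351 cells, which allows up to 0.855%) and 0.680% in Lag3KO_CD4, 0.656% and 0.416% in WT_CD4, 2.44% in Lag3KO_CD45 1, and 1.64% and 2.44% in WT_CD45. The lowest share among Tmem176-positive cells was above the highest among Tmem176-zero cells. In CD8 marked cells, however, Il17a was found at the same depth in 5.41% (2 of 37 cells) of Lag3KO_CD4 1 and 6.06% (4 of 66) of Lag3KO_CD45 1. In those libraries the Tmem176-positive share was not above that of CD8 marked cells. Whether these CD8 marked cells transcribe Il17a themselves was not tested. The other 5 libraries had 0 to 1.89% in CD8 marked cells.

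The mean share was 7.42% in Tmem176-positive and 1.18% in Tmem176-zero cells for Il17a, higher in 7 of 7 libraries. Il1r1, the IL-1 receptor, averaged 3.5% in Tmem176-positive and 0.434% in Tmem176-zero cells, also higher in 7 of 7. Ccr6, a chemokine receptor of Th17 cells, averaged 1.89% in Tmem176-positive and 0.308% in Tmem176-zero cells, and Il17f 1.45% and 0.270%, each higher in 6 of 7 libraries. The two-sided exact sign-flip permutation test over libraries gave p = 0.0156 for Il17a and Il1r1, the smallest p that 7 libraries allow, and p = 0.0313 for Ccr6 and Il17f. After Benjamini-Hochberg adjustment of these exact p-values over the 16 genes compared, these 4 had p = 0.1 and 0 of the 16 genes passed. With 0.0156 as the smallest p, an adjusted p under 0.05 over 16 genes needs several genes at that smallest value. Passing was therefore hardly within reach, and no conclusion on a single gene is drawn from it. Il23r, part of the IL-23 receptor, was found in 0.807% of Tmem176-positive and 0.0891% of Tmem176-zero cells, and was higher in 2 of 7 libraries.

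**Figure D2:**
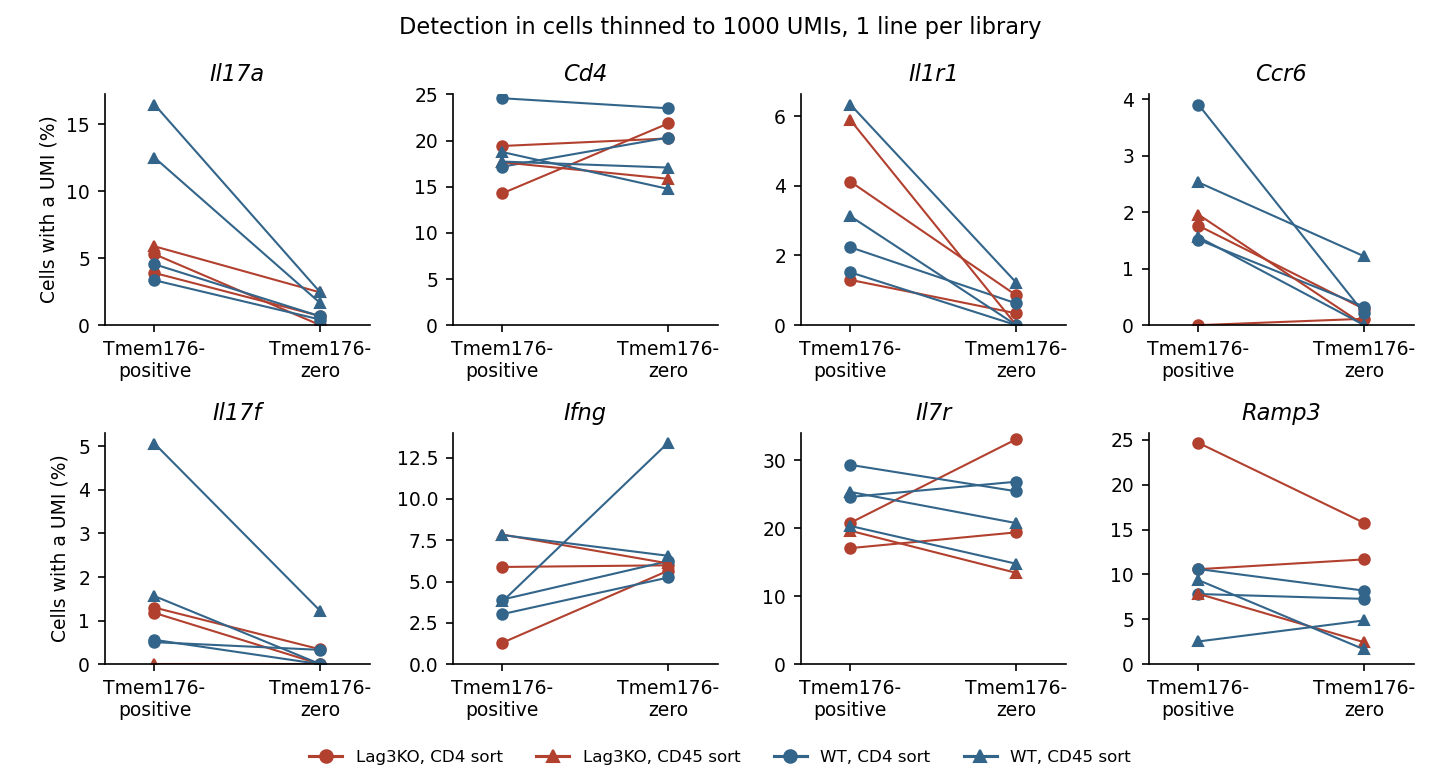
Percent of cells with at least 1 UMI of 8 genes after thinning each cell to 1000 UMIs, in Tmem176-positive (left) and Tmem176-zero (right) conventional T cells, with 1 line per library (Lag3KO red, WT blue, CD4 sort circles, CD45 sort triangles). Il17a and Il1r1 lines fall to the right in 7 of 7 libraries, Ccr6 and Il17f lines in 6 of 7, and Il7r lines run both ways.

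Without thinning, 77 of the 827 Tmem176-positive cells had an Il17a UMI. Il17f was found in 20 cells, 16 of them with Il17a, and Il22 in 31, 11 of them with Il17a. Ifng, the Th1 cytokine, was found in 75 cells, and 4 cells had both Il17a and Ifng. Of the cells with Il17a, 44.2% had a Cd4 UMI, near the 48.0% of all Tmem176-positive cells.

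Of the 4 genes by which the cells were proposed, Il7r and Ramp3 are not part of the rule, and neither passed. Il7r, the IL-7 receptor of resting and memory T cells, was at 186 and 274 CPM in Tmem176-positive cells of the Lag3KO_CD4 libraries, 303 and 311 in WT_CD4, 203 in Lag3KO_CD45 1, and 240 and 268 in WT_CD45. Tmem176-zero cells had 264 and 442, 325 and 304, 160, and 142 and 192 CPM in the same libraries. The level was higher in Tmem176-positive cells in 4 libraries and lower in 3, with a log2 value of -0.06 ± 0.12 (adjusted p = 0.849). Ramp3, an accessory protein of calcitonin family receptors, had a log2 difference of 0.49 ± 0.21 (adjusted p = 0.198). In the 4 CD4 libraries Ramp3 was at 83.3 to 261 CPM in Tmem176-positive and 81.3 to 216 CPM in Tmem176-zero cells, and in the CD45 libraries at 70.3 to 249 and 28.3 to 42.4 CPM. The other 2 genes, Tmem176a and Tmem176b, are those of the rule. The cells are called by their rule here and not by a Th17 name, since Il17a was found in 77 of the 827.

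Summed UMIs of each class in each library were compared by edgeR with the library as a block. Of 4775 genes tested, 320 passed at an adjusted p of 0.05 (6.7%), 190 higher (3.98%) and 130 lower (2.72%) in Tmem176-positive cells. Without Lag3KO_CD4 1, WT_CD4 1 or WT_CD4 2 the count was 194, 200 or 213, and leaving out the library labelled WT_CD45 2 gave 335. Differences below are log2 values of Tmem176-positive over Tmem176-zero cells with their standard error.

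Among 24 genes of the Th17 list, 12 were tested and 4 were higher, with 0 lower and a median difference of 0.36, beside 0.002 for all genes tested. Il17re, a subunit of the receptor for IL-17C, was at 112 and 65.2 CPM in Tmem176-positive cells of Lag3KO_CD4, 109 and 117 in WT_CD4, 79.0 in Lag3KO_CD45 1, and 36.5 and 95.8 in WT_CD45. Tmem176-zero cells had 32.8 and 14.9, 28.5 and 39.0, 22.0, and 38.7 and 55.5 CPM. Il17re was higher in 6 of 7 libraries, by 1.60 ± 0.17 (adjusted p = 1.22e-06), WT_CD45 1 being the exception.

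Serpinb1a, a protease inhibitor known from IL-17 producing T cells, was at 89.4 to 187 CPM in Tmem176-positive and 21.5 to 93.5 CPM in Tmem176-zero cells, higher in 7 of 7 libraries by 1.32 ± 0.14 (adjusted p = 7.76e-07). Ltb4r1, a receptor for the chemoattractant leukotriene B4, was higher in 7 of 7 by 1.07 ± 0.14 (adjusted p = 3.26e-05). Hif1a, the oxygen-sensing transcription factor, was higher by 0.33 ± 0.09 (adjusted p = 0.0278), and its call held under 7 of 15 alternatives.

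Il17a itself missed the threshold in this fit (1.21 ± 0.37, adjusted p = 0.0518), with few cells holding most of its UMIs in some libraries. It was at 66.9 and 41.2 CPM in Tmem176-positive cells of Lag3KO_CD4, 117 and 28.8 in WT_CD4, 134 in Lag3KO_CD45 1, and 161 and 310 in WT_CD45. Tmem176-zero cells had 3.52 and 108, 116 and 4.07, 18.8, and 12.9 and 39.2 CPM. The high values of Tmem176-zero cells were 225 UMIs in 10 cells of Lag3KO_CD4 2 and 162 UMIs in 4 cells of WT_CD4 1, while Tmem176-positive cells had 12 UMIs in 3 cells and 72 in 16 in those libraries.

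Il1r1, Ccr6, Il17f and Il22 had too few UMIs for the filter on low counts. In a fit with no such filter, which tested 14884 genes and called 2.25% of them higher, 10 of 22 Th17 genes were higher and 0 lower. The p-values of that fit rest on a spread pooled over genes and take little account of a gene's own spread between libraries. There Il1r1 differed by 1.91 ± 0.32 (adjusted p = 2.5e-07) and Ccr6 by 2.27 ± 0.42 (adjusted p = 6.22e-06). Il1r1 was at 34.2 and 17.2 CPM in Tmem176-positive cells of Lag3KO_CD4, 13 and 17.6 in WT_CD4, 30.9 in Lag3KO_CD45 1, and 27.4 and 41.5 in WT_CD45. Tmem176-zero cells had 4.69 and 5.29, 4.99 and 6.51, 0, and 0 and 19.6 CPM. The level was higher in Tmem176-positive cells in 7 of 7 libraries. Il17f (1.65 ± 0.22) and Il22 (1.29 ± 0.20) were called in that fit too, but 50 of the 51 Il17f UMIs of Tmem176-positive cells of Lag3KO_CD4 2 were in 1 cell. Of the Il22 UMIs of Tmem176-positive cells, 30 of 39 in WT_CD4 1 and 60 of 75 in WT_CD4 2 were in 1 cell. By the CPM given below, Il22 was lower in Tmem176-positive cells of Lag3KO_CD4 1, WT_CD45 1 and the library labelled WT_CD45 2.

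Of 19 genes of the Th1 list, 15 were tested, 7 were lower and 0 higher, with a median of -0.94. Nkg7, a protein of cytotoxic granules, was at 436 and 240 CPM in Tmem176-positive cells of Lag3KO_CD4, 368 and 291 in WT_CD4, 422 in Lag3KO_CD45 1, and 453 and 268 in WT_CD45. Tmem176-zero cells had 1024 and 856, 951 and 769, 948, and 1003 and 1077 CPM. Every Tmem176-positive value lay below every Tmem176-zero value, and the difference was -1.42 ± 0.08 (adjusted p = 1.29e-10), or 2.67-fold lower.

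Gzmk, a granzyme, was at 0 to 40.0 CPM in Tmem176-positive and 25.8 to 176 CPM in Tmem176-zero cells (-2.65 ± 0.24, adjusted p = 1.23e-07). Gzma, another granzyme that stood on the list of CD8 and natural killer cell markers, was at 4.87 to 82.4 and 64.5 to 264 CPM (-2.93 ± 0.22, adjusted p = 6.45e-09), and the apoptosis-inducing protease Gzmb differed by -1.26 ± 0.22. Cxcr3, the chemokine receptor of Th1 cells, was at 51.7 to 121 CPM in Tmem176-positive and 108 to 284 CPM in Tmem176-zero cells (-1.02 ± 0.09, adjusted p = 1.23e-07). Nkg7, Gzmk, Gzma and Cxcr3 were lower in 7 of 7 libraries.

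The chemokine gene Ccl5 was lower by 1.29 on the log2 scale over all libraries (SE 0.32, adjusted p = 0.0139), but the sorts differed. In the CD4 libraries it was at 415 to 1503 CPM in Tmem176-positive and 2969 to 5328 CPM in Tmem176-zero cells. In Tmem176-positive cells it was at 4014 CPM in Lag3KO_CD45 1, 4359 in WT_CD45 1 and, for the library labelled WT_CD45 2, 840, and in Tmem176-zero cells at 3106, 2578 and 1778 CPM. The CD45 libraries alone gave a difference of 0.09 for Ccl5, and its call was lost without Lag3KO_CD4 1, Lag3KO_CD4 2 or WT_CD4 1.

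The genes of the Th1 cytokine and its transcription factor did not pass. Ifng was at 47.6 and 13.7 CPM in Tmem176-positive cells of Lag3KO_CD4, 157 and 65.6 in WT_CD4, 51.5 in Lag3KO_CD45 1, and 79.0 and 95.8 in WT_CD45, and differed by -0.96 ± 0.29 (adjusted p = 0.0506). Tbx21, the transcription factor of Th1 cells, was lower in 7 of 7 libraries by 0.70 on the log2 scale (SE 0.23, adjusted p = 0.0688). Thinned detection of Ifng was 4.80% in Tmem176-positive and 7.03% in Tmem176-zero cells (exact sign-flip p = 0.172).

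Among cytokines that T cells use to drive disease in this model, 8 of 12 were tested, 2 were higher and 0 lower. Lta, which encodes lymphotoxin alpha, was at 39.5 to 65.2 CPM in Tmem176-positive and 9.42 to 42.2 CPM in Tmem176-zero cells (0.69 ± 0.18, adjusted p = 0.0188). Tnfsf11, which encodes RANKL, was at 22.4 to 95.8 and 15.7 to 58.7 CPM (0.70 ± 0.19, adjusted p = 0.0279). Both were higher in 7 of 7 libraries, but the call of Lta was lost without WT_CD4 1 or WT_CD4 2, and that of Tnfsf11 without WT_CD4 1 or the library labelled WT_CD45 2. Csf2, which encodes GM-CSF, was higher in 4 libraries and lower in 3 (0.23 ± 0.33, adjusted p = 0.788).

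The Tmem176-positive cells also had lower levels of genes of resting and memory T cells, of which 12 were tested, 4 were lower and 0 higher (median -0.39). Cd27, a costimulatory receptor of naive and central memory cells, was at 10.3 to 35.7 CPM in Tmem176-positive and 34.4 to 113 CPM in Tmem176-zero cells, lower in 7 of 7 libraries (-1.87 ± 0.18, adjusted p = 1.52e-07). Klf2, the transcription factor that keeps T cells in circulation, differed by -0.54 ± 0.07 (adjusted p = 3.54e-05), with Slamf6 at -0.77 ± 0.14 and the survival gene Bcl2 at -0.41 ± 0.09. On the list of 12 tested activation and checkpoint genes 2 were lower and 0 higher. Pdcd1, which encodes PD-1, differed by -1.03 ± 0.20 (adjusted p = 0.00169), with a value of 0.11 in the CD45 libraries alone, and Tnfrsf18, which encodes GITR, by -0.35 ± 0.09; both calls were lost without WT_CD4 1.

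Of 7 tested genes of regulatory T cells, 2 were higher and 2 lower. Il2ra, the high-affinity IL-2 receptor chain, was at 37.8 to 72.0 CPM in Tmem176-positive and 12.9 to 57.5 CPM in Tmem176-zero cells (0.70 ± 0.16), and the actin-capping gene Capg differed by 0.59 ± 0.08. Izumo1r, which encodes folate receptor 4, was at 9.58 to 107 and 43.0 to 204 CPM and lower in 7 of 7 libraries (-1.04 ± 0.19, adjusted p = 0.000897). Tnfrsf18 was the other lower gene. Among 14 tested cytokine receptors, Il2ra and the IL-1 decoy receptor Il1r2 (1.15 ± 0.19, adjusted p = 0.000453) were higher and 0 were lower.

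**Figure D3:**
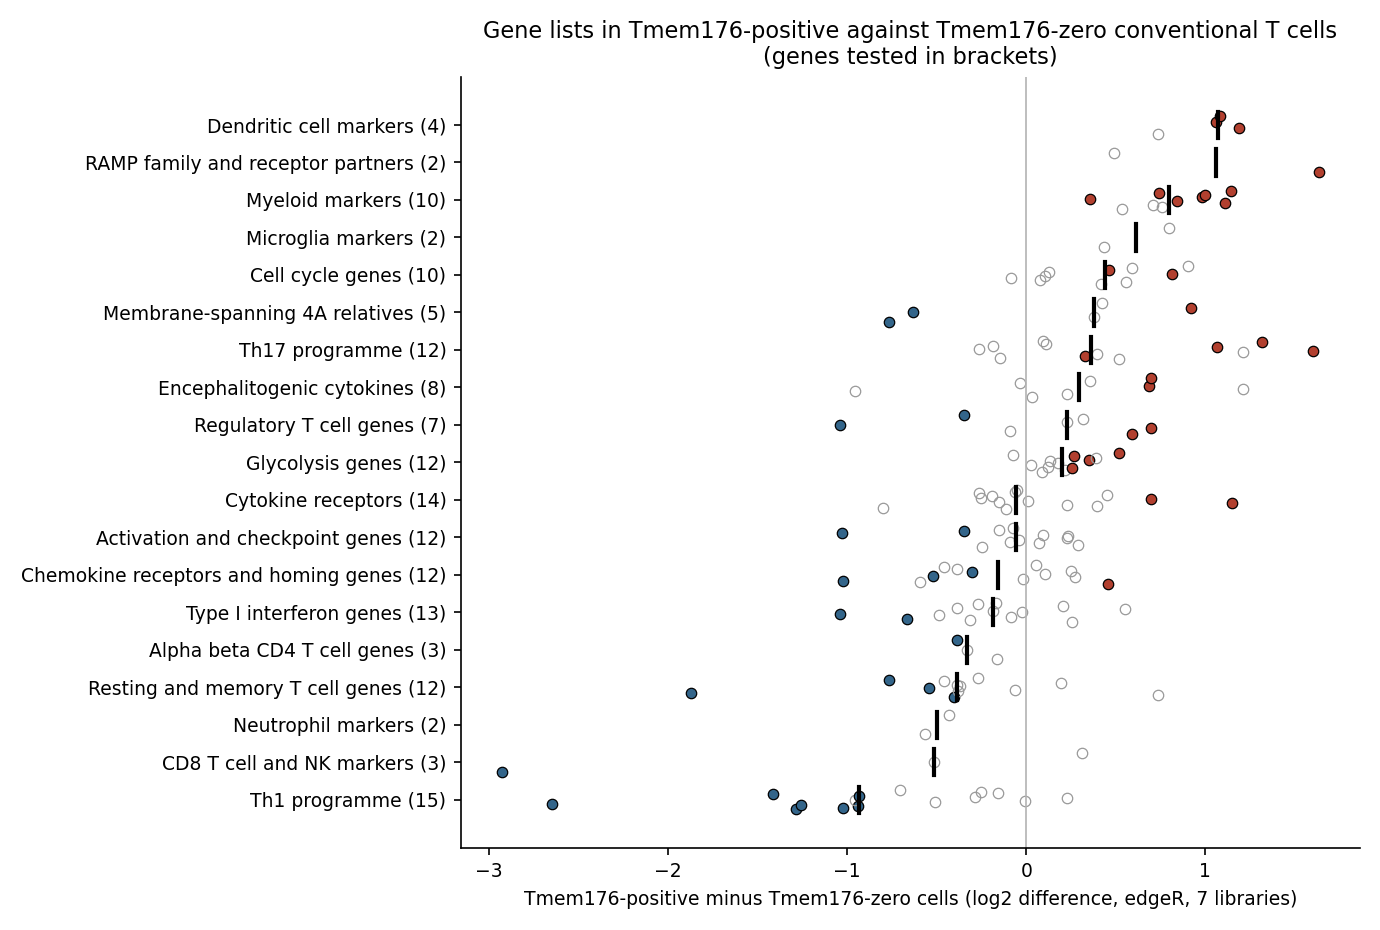
Log2 difference of each tested gene of the lists with at least 2 tested genes, Tmem176-positive minus Tmem176-zero conventional T cells over 7 libraries (filled red, higher with adjusted p under 0.05; filled blue, lower with adjusted p under 0.05; open grey, not passed; black bar, list median). Th1 genes sit lowest with a median of -0.94, and dendritic cell and myeloid markers sit high with medians of 1.07 and 0.80.

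The 20 genes named next were the 12 higher and 8 lower ones with the smallest p and 1 sign in 7 of 7 libraries. The first higher gene was Ramp1, which encodes a receptor partner that makes the calcitonin receptor-like protein a receptor for the neuropeptide CGRP. Ramp1 was at 335 and 99.5 CPM in Tmem176-positive cells of Lag3KO_CD4, 269 and 227 in WT_CD4, 316 in Lag3KO_CD45 1, and 234 and 377 in WT_CD45. Tmem176-zero cells had 113 and 30.3, 72.0 and 69.9, 87.9, and 125 and 137 CPM. The ranges overlap only through Lag3KO_CD4 2, which was the lowest library in both classes, and Ramp1 was 3.10-fold higher (1.63 ± 0.10, adjusted p = 2.48e-10).

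Avpi1 (1.63 ± 0.24), the lysosomal protease gene Ctsh (1.58 ± 0.21), the fatty acid carrier gene Fabp5 (1.35 ± 0.18), the cytoskeletal gene Ermn (1.33 ± 0.17), the alpha-actinin gene Actn2 (1.03 ± 0.13) and AA467197 (0.94 ± 0.10) were higher too. Ifitm3 (0.74 ± 0.07), which encodes an antiviral membrane protein, and Cst3 (0.84 ± 0.10), which encodes the protease inhibitor cystatin C, were among the 12 and are also on the list of myeloid markers. The remaining 3 of the 12 were Serpinb1a, Ltb4r1 and Capg.

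Among the 8 lower genes were Gimap6 (-0.94 ± 0.08) and Gimap7 (-1.10 ± 0.12), members of a family of lymphocyte GTPases. Both lie on chromosome 6 near the Tmem176 pair, Gimap6 at 48701582 to 48708225 and Gimap7 at 48718621 to 48724636, while Tmem176b spans 48833818 to 48841496 (GENCODE, GRCm38). Ms4a4b and Ms4a6b, which belong to the family that TMEM176 proteins resemble and lie on chromosome 19, were lower by 0.77 (SE 0.06) and 0.63 (SE 0.07) on the log2 scale, and Ms4a6c, which myeloid cells also use, was higher (0.92 ± 0.21). The other 5 of the 8 were Nkg7, Gzma, Gzmk, Cxcr3 and Cd27. Of the 20 genes, 17 were called under every alternative in which they were tested, and Actn2, Ltb4r1 and Capg were not called in the CD45 libraries alone.

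**Figure D4:**
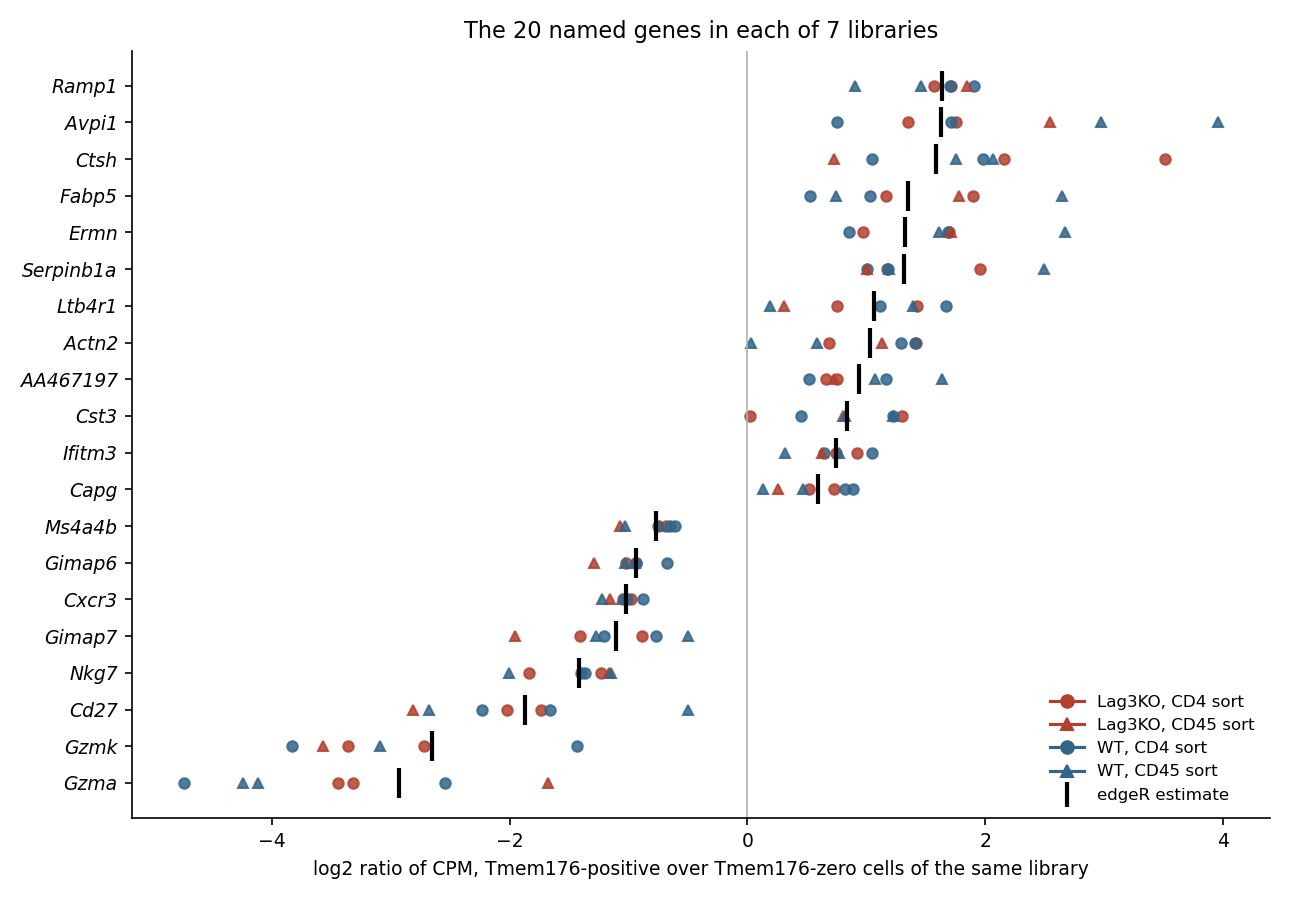
Log2 ratio of CPM in Tmem176-positive over Tmem176-zero cells in each of 7 libraries (Lag3KO red, WT blue, CD4 sort circles, CD45 sort triangles) for the 20 named genes, with the edgeR estimate as a black bar. The 12 upper genes lie right of 0 and the 8 lower genes left of 0 in every library, and Gzmk in the library labelled WT_CD45 2 is not drawn because its Tmem176-positive count is 0.

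Of 12 tested glycolysis genes 4 were higher and 0 lower, among them Tpi1 (0.52 ± 0.09, higher in 7 of 7 libraries) and Pkm (0.27 ± 0.07), whose call was lost without any 1 of 3 CD4 libraries. Of 10 cell cycle genes, 2 were higher, the tubulin regulator Stmn1 (0.81 ± 0.17) and the tubulin Tubb5 (0.46 ± 0.09), and Stmn1 was at -0.18 in the CD45 libraries alone. Of 13 type I interferon response genes 2 were lower, Ifi27l2a (-0.67 ± 0.09) and Ifit3 (-1.04 ± 0.21), and Ifit3 was at 0.27 in the CD45 libraries alone. Among 12 chemokine receptors and homing genes, Ccr2, a receptor of inflammatory monocytes and effector T cells, was higher (0.46 ± 0.11), and Cxcr3, Itga4 (-0.52 ± 0.16) and Itgb1 (-0.30 ± 0.09) were lower. Itga4 and Itgb1 encode the chains of the integrin VLA-4, and their calls held under 8 and 4 of 15 alternatives. Gata3, the transcription factor of Th2 cells, differed by -0.56 ± 0.11 and was lower in 7 of 7 libraries.

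Transcripts of other cell types moved with the class. Of 10 tested myeloid markers 7 were higher and 0 lower (median 0.80), and of 4 dendritic cell markers 3 were higher and 0 lower (median 1.07). Their names and differences were Tyrobp 1.15, Csf1r 1.11, Fcgr3 1.00, Fcer1g 0.98, Cst3 0.84, Ifitm3 0.74 and Ctss 0.36 for the myeloid list, and H2-Aa 1.19, H2-Eb1 1.08 and H2-Ab1 1.06 for the dendritic list. The 12 myeloid markers that the rule did not use summed to 2271 and 2024 CPM in Tmem176-positive cells of Lag3KO_CD4, 1760 and 2198 in WT_CD4, 14008 in Lag3KO_CD45 1, and 11087 and 7567 in WT_CD45. Tmem176-zero cells had 1438 and 1051, 1020 and 899, 10735, and 7533 and 4597 CPM. The sum was higher in Tmem176-positive cells in 7 of 7 libraries, and 10 to 12 of the 12 genes had a UMI in each class and library, with Cd14 or Spp1 at 0 in 3 of the Tmem176-positive sums.

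The 12 dendritic cell markers summed to 403 to 3456 CPM in Tmem176-positive and 78.1 to 2070 CPM in Tmem176-zero cells. The defining markers of type 1 dendritic cells, Clec9a and Xcr1, were each at 0 in 6 of 7 Tmem176-positive sums and both at 0 in 5. Myeloid and dendritic cells themselves transcribe Tmem176a and Tmem176b, and the part of this RNA in the gene differences was not tested. With the limit on Lyz2, C1qb and Cd74 lowered to 60 per 10000, 283 genes passed, and H2-Aa (0.10), H2-Ab1 (0.08), Fcer1g and Ms4a6c (0.15) no longer did, while Ramp1, Serpinb1a, Il17re, Nkg7, Gzma and Cxcr3 did. Lta, Hif1a and Itgb1 were lost under that limit too. The B cell and erythroid lists had no tested gene, of 2 neutrophil and 2 microglia markers 0 passed, and of 9 innate lymphoid genes only Gata3 was tested.

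Within T cells of each library, the genes whose level per cell ranked most like that of Tmem176a and Tmem176b together were few and overlapped with the differences above. Over 6203 genes, the median Spearman correlation of 7 libraries was highest for Ramp1 (0.384), followed by Cxcr6 (0.268), Actn2 (0.267), Il17re (0.254), Serpinb1a (0.252), the water and glycerol channel gene Aqp3 (0.251), Ltb4r1 (0.247), the creatine kinase gene Ckb (0.246) and Il17a (0.238). The T cells of this ranking include gamma delta marked cells, the counts are sparse, and cells of a library share its depth, so these values describe the order only.

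The Tmem176-positive cells were also compared with the 146 gamma delta marked T cells, which were chosen by Cd163l1 in all libraries and by Trdc in the CD45 libraries. In the CD4 libraries this class therefore holds only cells with a Cd163l1 UMI and may not stand for gamma delta T cells in general. Whether other genes go with Cd163l1 within gamma delta T cells was not tested. Gamma delta marked cells with at least 10 cells were found in 5 libraries, 25 in Lag3KO_CD4 1, 22 in WT_CD4 1, 16 in WT_CD4 2, 43 in Lag3KO_CD45 1 and 27 in WT_CD45 1. Of 2942 genes tested, 34 passed (1.16%), 12 higher (0.408%) and 22 lower (0.748%) in Tmem176-positive than in gamma delta marked cells. Il17a was at 66.9 CPM in Tmem176-positive and 147 in gamma delta marked cells of Lag3KO_CD4 1, at 117 and 127 in WT_CD4 1, at 28.8 and 425 in WT_CD4 2, at 134 and 756 in Lag3KO_CD45 1 and at 161 and 420 in WT_CD45 1. It was lower in Tmem176-positive cells in 5 of 5 libraries (-1.77 ± 0.30, adjusted p = 0.0014).

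Serpinb1a, Aqp3, Actn2, Ramp1 and Cxcr6 were lower in Tmem176-positive than in gamma delta marked cells too, with log2 differences of -1.0 ± 0.21 for Serpinb1a, -1.44 ± 0.29 for Aqp3, -1.28 ± 0.21 for Actn2, -0.70 ± 0.15 for Ramp1 and -0.62 ± 0.15 for Cxcr6. Pdcd1 (-2.15 ± 0.22, adjusted p = 1.31e-06), Gzmb (-2.24 ± 0.27) and Cd7 (-1.51 ± 0.25) were lower in Tmem176-positive cells as well. Tmem176-positive cells had more of the proximal T cell receptor kinase Lck (0.81 ± 0.20), Cd40lg, the helper ligand CD40L (1.52 ± 0.35), Ms4a4b (0.76 ± 0.16), and Ifitm3, Ifitm1 and Ifitm2 (1.59 ± 0.16, 1.5 ± 0.29 and 0.88 ± 0.16). Ramp3 did not pass (0.99 ± 0.35, adjusted p = 0.269). Of 10 tested Th17 genes 0 were higher and 2 lower, with a median of -0.25 beside 0.03 for all genes. Without Lag3KO_CD45 1, which held the most gamma delta marked cells, 13 genes passed, and Il17a, Serpinb1a, Aqp3, Ramp1, Cxcr6, Lck, Cd40lg, Ms4a4b, Ifitm1 and Ifitm2 were no longer among them, while Pdcd1, Gzmb, Cd7, Actn2 and Ifitm3 were. DESeq2 did not call Il17a either.

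Between genotypes, few genes passed in the Tmem176-positive cells, in tests that would miss most small differences. In simulated counts they found 8 of 63 genes changed 1.5-fold over both sorts, and 6 of 61 in the CD4 libraries. Of genes changed 2-fold they found 51 of 70 over both sorts and 30 of 75 in the CD4 libraries. With both sorts and the sort as a term, 0 of 4110 genes passed (0%) in edgeR, where 224 had an unadjusted p under 0.05, and 0 passed in DESeq2, where 56 had. The genes with the smallest p were Ccl4, Ccl3, Ly6d, Ccl2 and Tff1 on the higher side and Gm10036, Tpm3, Plcxd2, H2-Q6 and Gpcpd1 on the lower side, all at an adjusted p of 0.698. Among them the chemokine gene Ccl3 was at 11.9 and 3.43 CPM in Lag3KO_CD4, against 0 and 1.60 in WT_CD4, and at 240 in Lag3KO_CD45 1, against 33.4 and 105 in WT_CD45. In no gene list did any gene pass, the Th17 list having 14 tested genes with a median of -0.09 and the Th1 list 11 with a median of -0.07, beside -0.002 for all genes.

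In the CD4 libraries 3 of 5313 genes passed (0.0565%), 1 higher (0.0188%) and 2 lower (0.0376%) in Lag3KO. The fit held all 7 libraries with a mean for each group, so the CD45 libraries share in its estimate of the spread. Tpm3, a tropomyosin of the actin skeleton on chromosome 3, was at 65.4 and 78.9 CPM in Lag3KO_CD4, against 344 and 408 in WT_CD4 (-2.42 ± 0.25, adjusted p = 0.00415). Its near-identical copy Tpm3-rs7 on chromosome 14 was at 266 and 268 CPM in Lag3KO_CD4, against 0 and 4.80 in WT_CD4 (adjusted p = 0.00727). The groups did not overlap for either gene, but the sum of both was 332 and 347 CPM in Lag3KO_CD4, against 344 and 413 in WT_CD4, and how reads were split between these near-identical copies was not tested. H2-Q7, which encodes an MHC class I-like surface protein, was at 260 and 261 CPM in Lag3KO_CD4, against 540 and 636 in WT_CD4 (-1.19 ± 0.17, adjusted p = 0.0329).

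None of these 3 genes was among those called in the test between classes given next. Tmem176-zero cells had 77.4 and 74.5 CPM of Tpm3 in Lag3KO_CD4, against 362 and 412 in WT_CD4, and 313 and 381 CPM of H2-Q7 in Lag3KO_CD4, against 558 and 767 in WT_CD4. In the CD45 libraries H2-Q7 was at 584 CPM in Lag3KO_CD45 1, against 623 and 537 in WT_CD45, and Tpm3 at 189, against 170 and 281. Tpm3-rs7 was at 72.1 CPM in Tmem176-positive cells of Lag3KO_CD45 1, against 155 and 25.6 in WT_CD45. H2-Q7 was not called without Lag3KO_CD4 1, Lag3KO_CD4 2 or WT_CD4 2, and Tpm3 not without Lag3KO_CD4 1. Ctla4, an inhibitory receptor, was at 137 and 168 CPM in Lag3KO_CD4, against 76.2 and 40.0 in WT_CD4, and did not pass (1.35 ± 0.30, adjusted p = 0.957).

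The test of whether the genotype difference itself differed between Tmem176-positive and Tmem176-zero cells, within libraries of both sorts, called 5 of 5795 genes (0.0863%), 2 with a higher (0.0345%) and 3 with a lower value (0.0518%). The 3 lower ones are T cell cytokines. Ifng was at 47.6 and 13.7 CPM in Tmem176-positive cells of Lag3KO_CD4, against 157 and 65.6 in WT_CD4, and at 51.5 in Lag3KO_CD45 1, against 79.0 and 95.8 in WT_CD45. In Tmem176-zero cells it was at 397 and 111 CPM in Lag3KO_CD4, against 102 and 97.6 in WT_CD4, and at 81.7 in Lag3KO_CD45 1, against 99.0 and 163 in WT_CD45. Lag3KO values lay below WT values among Tmem176-positive cells of both sorts. Among Tmem176-zero cells they lay above WT values in the CD4 libraries and below them in the CD45 libraries. The difference of differences was -2.55 ± 0.35 (adjusted p = 3.23e-05).

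Il22, a cytokine that acts on epithelium, was at 52.0 and 54.9 CPM in Tmem176-positive cells of Lag3KO_CD4, against 63.3 and 120 in WT_CD4, while Tmem176-zero cells had 84.5 and 21.2 CPM in Lag3KO_CD4, against 3.57 and 20.3 in WT_CD4 (-2.86 ± 0.49, adjusted p = 0.0013). In the CD45 sort Il22 was at 6.87 CPM in Tmem176-positive cells of Lag3KO_CD45 1, against 6.08 and 3.19 in WT_CD45, and at 0 in Tmem176-zero cells of Lag3KO_CD45 1, against 8.61 and 9.79 in WT_CD45. Csf2 was at 22.3 and 48.0 CPM in Tmem176-positive cells of Lag3KO_CD4, against 45.4 and 52.8 in WT_CD4, and at 46.9 and 82.2 in Tmem176-zero cells of Lag3KO_CD4, against 20.7 and 8.95 in WT_CD4 (-2.42 ± 0.44, adjusted p = 0.00392). In the CD45 sort it was at 6.87 CPM in Tmem176-positive cells of Lag3KO_CD45 1, against 15.2 and 6.39 in WT_CD45, and at 3.14 in Tmem176-zero cells of Lag3KO_CD45 1, against 38.7 and 3.26 in WT_CD45. The order of the genotypes in Tmem176-zero cells was thus opposite in the CD4 and CD45 sorts for Il22, Csf2 and Ifng. For Il22 and Csf2, 0 to 9 UMIs were behind each CD45 value. Single cells held much of each cytokine. Of the 97 Ifng UMIs of Tmem176-positive cells of WT_CD4 1, 83 were in 1 cell, and of the 338 of Tmem176-zero cells of Lag3KO_CD4 1, 137 were in 1 cell. In WT_CD4 2, 60 of 75 Il22 UMIs of Tmem176-positive cells were in 1 cell. DESeq2 called 0 of the 5795 genes, with 11 at an unadjusted p under 0.05. In edgeR the call of Ifng was lost without Lag3KO_CD4 1 or WT_CD4 1, that of Il22 without Lag3KO_CD4 1, WT_CD4 1 or WT_CD4 2, and that of Csf2 without any 1 of the 4 CD4 libraries.

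Ly6c2, a surface protein of effector T cells and monocytes, differed by 1.16 ± 0.19 (adjusted p = 0.000593), with 93.7 and 199 CPM in Tmem176-positive cells of Lag3KO_CD4, against 90.8 and 109 in WT_CD4. Tmem176-zero cells had 188 and 236 CPM of Ly6c2 in Lag3KO_CD4, against 399 and 351 in WT_CD4, and the call was lost without Lag3KO_CD4 2 or WT_CD4 1. Among Tmem176-positive cells, the top 3 cells held 43 of 63 Ly6c2 UMIs in Lag3KO_CD4 1 and 42 of 58 in Lag3KO_CD4 2. They held 20 of 56 in WT_CD4 1 and 31 of 68 in WT_CD4 2. The fifth gene, the haemoglobin gene Hbb-bs, marks red cells and was at 408 CPM in Lag3KO_CD4 2, 35.2 in WT_CD4 2 and 0 in the Tmem176-positive cells of the other 5 libraries. Of its 119 UMIs in Tmem176-positive cells of Lag3KO_CD4 2, 118 were in 1 barcode.

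**Figure D5:**
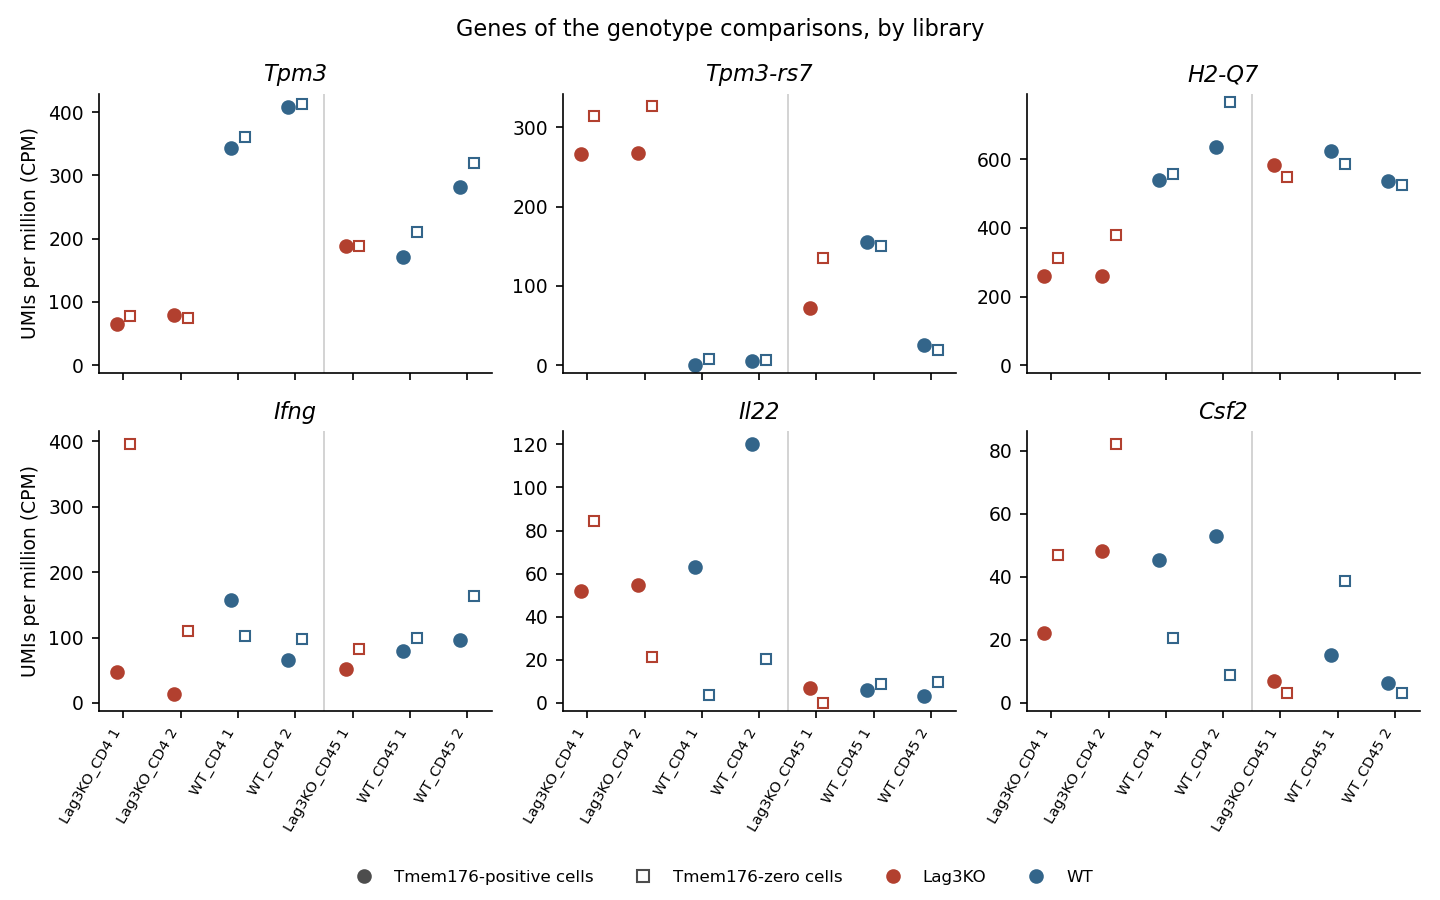
CPM of 6 genes of the genotype comparisons in Tmem176-positive (filled circles) and Tmem176-zero (open squares) cells of each library (Lag3KO red, WT blue, linear axes, CD4 libraries left of the line). Tpm3 and Tpm3-rs7 mirror each other in the CD4 libraries in both classes, H2-Q7 is lower in both Lag3KO_CD4 libraries, and Ifng is highest in Tmem176-zero cells of Lag3KO_CD4 1 at 397 CPM.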

How the data were processed

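Libraries were made with the 10x Genomics 3′ v2 kit, per the labels' protocols. The authors deposited UMI counts per gene and barcode, made with Cell Ranger against GRCm38 or mm10 per the submitters' processing notes; the file headers of the CD4 libraries give version 3.0.2. Those notes also name Seurat, without settings. The counts are not normalized. The 27998 genes listed for all libraries were tested; receptor genes such as Trac and Trdc, listed for the CD45 libraries alone, were used there for the rule and for detection. Replicate numbers follow accession order.

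UMIs were summed per library and class where at least 10 cells were present and tested with edgeR 4.0.16 (quasi-likelihood, TMM, filterByExpr, two-sided), with Benjamini-Hochberg adjustment over all genes tested at 0.05 and DESeq2 1.42.0 as the alternative. CPM are UMIs per 1000000 UMIs of that class and library. A standard error is the log2 difference divided by the square root of its F value. Genes of the rule and mitochondrial genes were left out of tests across all genes between classes, and kept where genotypes were compared within Tmem176-positive cells. Intervals of shares are Clopper-Pearson at 95%. A count of 0 allows a share of up to 3 counts of the total. Doublet-like barcodes were marked with scrublet in scanpy 1.11.5 at 0.8% per 1000 barcodes and kept. Named genes were the 12 higher and 8 lower genes with the smallest p among those past the threshold with 1 sign in every library fitted, and, between genotypes, every gene past the threshold or, with fewer than 5, also the 5 higher and 5 lower with the smallest p; genes of lists are named as examples. The cells, the lists and the text's examples were chosen with earlier results of these data known. The procedures were tested on simulated data. Python 3.11.15 and R 4.3.3 were used. One item is not reported here.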

Additional observations from a re-analysis of the deposited data

Results flagged for a closer look

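For 5 genes the genotype difference in Tmem176-positive cells differed from that in Tmem176-zero cells of the same libraries by an interaction test (edgeR, adjusted p under 0.05). The difference of the log2 differences was 4.86 for Hbb-bs, -2.55 for Ifng, 1.16 for Ly6c2, -2.86 for Il22 and -2.42 for Csf2. Hbb-bs had UMIs in Tmem176-positive cells of Lag3KO_CD4 2 (408 CPM) and WT_CD4 2 (35.2 CPM) and in Tmem176-zero cells of the same libraries (9.62 and 25.2 CPM), and its value was -0.37 without Lag3KO_CD4 2. Of its 119 UMIs in Tmem176-positive cells of Lag3KO_CD4 2, 118 were in 1 barcode. The part of red cell RNA in the other differences was not tested. With 7 libraries split by sort, the Ifng and Il22 values rest on libraries in which single cells hold up to 85.6% of the Ifng and 80.0% of the Il22 UMIs of Tmem176-positive cells in the CD4 sort.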

How the results depend on the processing

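The count of genes that differed between Tmem176-positive and Tmem176-zero cells was 320, against 155 with DESeq2, 571 with no filter on low counts, 122 with cells thinned to 1000 UMIs, 527 in the CD4 and 156 in the CD45 libraries alone, and 194 to 373 leaving out 1 library. Against gamma delta marked cells it was 34, against 19 with DESeq2, 133 with no filter, 18 with the myeloid limit at 60 per 10000, and 13 to 53 leaving out 1 library; 43 passed with at least 5 cells per library, an alternative chosen after seeing the data. Between genotypes over both sorts it was 0, against 49 with no filter, 2 with the myeloid limit at 60, 9 with thinned cells and 0 to 6 leaving out 1 library. In the CD4 libraries it was 3, against 34 with no filter, 6 with a term for the libraries that held haemoglobin and 3 to 8 leaving out 1 library. For the difference between classes it was 5, against 0 with DESeq2, 13 with no filter, 2 with at least 3 Tmem176 UMIs and 1 to 8 leaving out 1 library. The genotype difference in shares was -12.7 to -3.01 points leaving out 1 library.

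Signs turned as follows. In the CD45 libraries alone the log2 differences of Tmem176-positive over Tmem176-zero cells were 0.0881 for Ccl5, 0.114 for Pdcd1, 0.0531 for Itga4, -0.179 for Stmn1, 0.273 for Ifit3 and 0.518 for Il7r. Il7r was also at 0.00331 with DESeq2 and at -0.14 to 0.0599 leaving out 1 library. Leaving out 1 library, the genotype difference of Ly6d was 0 to 1.77 and the class difference of Hbb-bs -0.375 to 4.88. Detection differences in points leaving out 1 library were -1.34 to 0.592 for Cd4, -0.469 to 2.61 for Il7r and -0.00591 to 0.942 for Il23r. Without thinning they were 6.38 for Cd4 and 5.87 for Maf, and with at least 3 Tmem176 UMIs -2.03 for Il7r. The cause of these changes was not tested. Classes of cells were paired within library, but Lag3KO and WT libraries could not be paired, because replicate numbers follow accession order and pair no samples. Requiring Trdc at 0 in the CD4 libraries was not run, since Trdc is not listed in their tables. Il1r1, Ccr6 and Il23r had few UMIs per library, which limits what could be tested.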

Other observations

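Tff1, which encodes a small secreted trefoil peptide known from the stomach lining, was at 263 and 41.2 CPM in Tmem176-positive cells of Lag3KO_CD4, 50.3 and 40.0 in WT_CD4, 106 in Lag3KO_CD45 1, and 15.2 and 38.3 in WT_CD45. Tmem176-zero cells had 10.6 and 2.40 CPM in Lag3KO_CD4, 2.85 and 0.813 in WT_CD4, 0 in Lag3KO_CD45 1, and 0 and 13.1 in WT_CD45. Tmem176-positive values lay above the Tmem176-zero values of the same library in 7 of 7, and Lag3KO_CD4 1 stood highest in Tmem176-positive cells. The gene had too few UMIs for the filter on low counts and was chosen after its values were seen. The fit with no filter has p-values that take little account of a gene's own spread between libraries. In that fit Tff1 differed by 4.27 ± 0.26 (SE, edgeR adjusted p = 6.52e-59). In Lag3KO_CD4 1 its 177 UMIs were in 26 Tmem176-positive cells, 26 of them in the highest cell, while in WT_CD4 1 its 31 UMIs were in 4 cells, 23 of them in 1.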
